A study of Mus with 3 samples.

Results

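Trem2, Apoe, Cd36, Msr1, Plin2, Gpnmb, Spp1, Fabp5, Mrc1 and Lpl are 10 genes linked to macrophages that take up, carry, burn or store lipid and clear modified lipoproteins and dying cells. They were followed here, out of 32285 genes counted, in the macrophages of MC38 tumors and in the other cell classes of the same tumors. A macrophage was a cell with a genotype and no T cell receptor clonotype that held 5 or more UMIs (unique molecular identifiers, 1 for each captured RNA molecule) of C1qa, C1qb and C1qc together and 3 or more UMIs of Lyz2. This rule found 59 macrophages among the 4925 cells with a genotype: 21 came from the WT tumor, 27 from RARα-KO and 11 from RARα-TG. None of the 10 genes was used to choose the cells, and the C1q genes and Lyz2, which were, are not results.

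Macrophages bind oxidized lipoproteins and cell debris through scavenger receptors such as Cd36 and Msr1, while Mrc1 is the mannose receptor. Trem2 is a surface receptor that recognizes lipids and passes its signal on through an adaptor protein. Lipid that has been taken up is carried by fatty acid binding proteins, broken down in lysosomes, stored in droplets that are coated by perilipins, or handed over to lipoprotein particles that hold apolipoprotein E. In tumors, macrophages rich in Spp1 or Trem2 and lipid-laden macrophages have been described next to others rich in C1q and Mrc1, so these genes are often read as marks of a macrophage's state.

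MC38 is a mouse colon cancer line, and the tumors were collected on day 16. WT mice carried neither change of Rara. In RARα-KO mice (dLck-Cre crossed to Rara L/L), Cre recombinase under the distal Lck promoter, which is active in mature T cells, removes a part of Rara, the gene of retinoic acid receptor α. RARα-TG mice (CD2-Rara) express Rara under the CD2 promoter, which is active in T cells. Neither promoter is aimed at macrophages, so a difference in macrophages compares cells of tumors whose T cells were changed. C57BL/6 and dLck-Cre mice served as WT controls across the study. The paper states that most of its experiments used age-matched mice of both sexes, but also that later work was mostly on males. Which control strain, which ages and sexes and how many mice stand behind these tumors are not given in the sources used here. From each genotype 30000 sorted CD45.2+ CD3+ T cells and 10000 cells of the whole tumor were mixed, marked with an antibody hashtag, and combined in a single 5′ library (10x Genomics). Each genotype is therefore 1 sample, no value has a replicate, and no test could be made. The sort for T cells also sets how many macrophages were seen, so shares of macrophages among all cells were not compared.

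Levels are given in CPM, the UMIs of a gene per 1000000 gene UMIs of the same class and genotype. Where 3 values follow each other without names, they are in the order WT, RARα-KO, RARα-TG. Intervals are exact 95% intervals (Poisson for levels, Clopper-Pearson for shares of cells, binomial for log2 ratios between genotypes), and they cover counting error only, not the spread between mice or tumors. With 3 genotypes of 1 sample each, even an exact sign-flip test that paired classes over the genotypes could not go below p = 0.25, so none is given.

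The 59 macrophages had median depths of 10031, 8069 and 12673 UMIs by genotype, and summed to 233687, 240287 and 124433 UMIs. All 12 macrophage markers were detected in each genotype. The C1q genes and Lyz2 are on that list and were used to choose the cells, while the others, among them Csf1r and Cd68, were not. The RARα-TG macrophages stand on the fewest cells, and they also held more monocyte marker UMIs, 3657 CPM over the monocyte list against 1583 in WT and 1752 in RARα-KO. Within that list Chil3 was at 4.28, 20.8 and 1141 CPM and Ly6c2 at 167, 658 and 0 CPM, so the genotypes did not share 1 monocyte profile. T cell markers had UMIs for 7 of 10 genes in WT (107 CPM over the list), 5 in RARα-KO (25 CPM) and 1 in RARα-TG (8.04 CPM) macrophages, and the dendritic marker Flt3 was at 0 in all 3 genotypes. Dendritic markers summed to 261, 108 and 514 CPM. In T cells, at median depths of 4719.5, 4875 and 3604.5 UMIs, Trem2, Msr1, Cd36, Mrc1 and Lpl were each found in at most 0.479% of the cells, Apoe in at most 0.548% and Gpnmb in at most 1.06%. Macrophages held Apoe in 66.7%, 55.6% and 72.7% of cells, Gpnmb in 9.52%, 14.8% and 18.2%, and Lpl in 14.3%, 7.41% and 9.09%. Only 5 macrophages lay near the limits of the rule from inside (5 to 7 C1q UMIs or 3 to 4 Lyz2 UMIs), and 8 cells lay just outside it.

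Rara checks the genotypes only in T cells. In T cells it stood at 84.1, 77.6 and 243 CPM (650, 691 and 707 UMIs), so the transgene was seen (log2 ratio 1.53, interval 1.38 to 1.69). RARα-KO differed little from WT (-0.12, -0.27 to 0.04), and since 5′ tags outside the deleted part still count, this does not check the deletion. Macrophages held 15, 6 and 5 Rara UMIs (64.2, 25 and 40.2 CPM). Neither log2 ratio to WT left 0, with an interval of -3.02 to 0.09 for RARα-KO and -2.49 to 0.86 for RARα-TG.

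The scavenger receptors Msr1 and Cd36 had their highest summed level in RARα-KO macrophages, and the mannose receptor Mrc1 in RARα-TG macrophages. Msr1 (ENSMUSG00000025044, chromosome 8, 39543232 to 39642750 in GRCm38), the class A scavenger receptor for acetylated and oxidized LDL, was found in 71.4%, 70.4% and 72.7% of the macrophages. RARα-KO macrophages had the most, 395 CPM (95 UMIs, 320 to 483), followed by WT with 257 CPM (60 UMIs, 196 to 330) and RARα-TG with 201 CPM (25 UMIs, 130 to 297). The log2 ratio of RARα-KO to WT was 0.62 (0.14 to 1.11), a small difference beyond counting error and under 2-fold.

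Cd36 (ENSMUSG00000002944, chromosome 5, 17781690 to 17888959), which binds oxidized LDL and long-chain fatty acids, was sparse. It had 4 UMIs in 4 WT macrophages (17.1 CPM, 4.66 to 43.8), 36 UMIs in RARα-KO macrophages (149.8 CPM, 105 to 207) and no UMI in RARα-TG macrophages, which allows up to 29.6 CPM. The 36 UMIs lay in 22.2% of the RARα-KO macrophages, with up to 12 in a single cell, and the log2 ratio to WT was 3.13 (1.65 to 5.08). When each cell was given the same weight, the ratio was -0.17, a setting in which 1 WT macrophage with 529 UMIs and 1 Cd36 UMI counted as 18.9 per 10000. WT macrophages held Cd36 in 19.0% of cells at full depth, but after thinning to 2000 UMIs the shares were 0% in WT and 21.7% in RARα-KO. Cd36 was not detectable in RARα-TG macrophages at this depth.

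Mrc1 (ENSMUSG00000026712, chromosome 2, 14229414 to 14332023), the mannose receptor CD206 of resident-like macrophages, went the other way. It was at 141, 83.2 and 241 CPM (33, 20 and 30 UMIs), and was found in 38.1%, 14.8% and 81.8% of the macrophages. After each cell had been thinned to 2000 UMIs, which left 19, 23 and 11 cells, the shares were 5.26%, 8.70% and 27.3%, so at equal depth the order of WT and RARα-KO did not hold. The interval of the log2 ratio spanned 0 in RARα-KO (-0.76, -1.64 to 0.08) and began just above it in RARα-TG (0.77, 0.01 to 1.53). The RARα-KO ratio ran from -2.19, without the deepest 5% of macrophages, to -0.02, without macrophages that held T cell UMIs.

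Trem2 (ENSMUSG00000023992, chromosome 17, 48346401 to 48352276), the lipid-sensing receptor, was at the same level in WT and RARα-KO within counting error. They had 244 CPM (57 UMIs, 185 to 316) and 254 CPM (61 UMIs, 194 to 326), while RARα-TG macrophages had 386 CPM (48 UMIs, 284 to 511). The ratio of RARα-KO to WT was 0.06 with an interval from -0.49 to 0.60, which leaves room for a difference of either sign under 2-fold, and it was -0.77 with equal weight per cell. RARα-TG was higher, by 0.66 (0.08 to 1.24), and held Trem2 in 90.9% of its macrophages against 71.4% and 66.7%.

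The pair of genes that act on lipoproteins outside the cell differed in how well they could be seen. Apoe (ENSMUSG00000002985, chromosome 7, 19696244 to 19701310), the apolipoprotein that takes cholesterol out of macrophages, was at 2093 CPM in WT (489 UMIs, 1911 to 2287). RARα-KO macrophages had 1157 CPM (278 UMIs, 1025 to 1301) and RARα-TG macrophages 3882 CPM (483 UMIs, 3543 to 4244). The median macrophage held 5, 2 and 30 Apoe UMIs. Apoe was therefore lowest in RARα-KO and highest in RARα-TG macrophages, with log2 ratios to WT of -0.85 (-1.07 to -0.64) and 0.89 (0.71 to 1.08), both under 2-fold. The RARα-KO difference turned to 0.16 when each cell was thinned to 2000 UMIs. Lpl (ENSMUSG00000015568, chromosome 8, 68880555 to 68906932), the lipase that frees fatty acids from lipoproteins, had 3, 6 and 1 UMIs in the 3 genotypes, too few to compare (log2 ratio of RARα-KO to WT 0.96, -1.27 to 3.59).

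The genes that handle lipid inside the cell, Plin2 and Fabp5, were 8.23-fold and 7.98-fold higher in RARα-KO than in WT macrophages taken by the rule. The size depended on the setting of the analysis, with log2 ratios from 1.49 to 3.23 for Plin2 and 1.59 to 3.88 for Fabp5. The C1q-low cells of the same cluster had smaller ratios, 0.98 and 1.04. Plin2 (ENSMUSG00000028494, chromosome 4, 86626910 to 86670217), the perilipin that coats lipid droplets, reached 1515 CPM in RARα-KO (364 UMIs, 1363 to 1679), while WT macrophages had 184 CPM (43 UMIs, 133 to 248) and RARα-TG macrophages 305 CPM (38 UMIs, 216 to 419). Its log2 ratio was 3.04 (2.58 to 3.53) in RARα-KO, and 81.5% of RARα-KO macrophages held it against 66.7% in WT, or 82.6% against 36.8% after thinning to 2000 UMIs. The difference ran through most cells, since the median macrophage had 9.56 Plin2 UMIs per 10000 in RARα-KO and 1.37 in WT. In RARα-TG the ratio was 0.73 (0.06 to 1.39), but 29 of the 38 UMIs lay in a single macrophage, and without the macrophage with the most Plin2 in each genotype it was -1.03.

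Fabp5 (ENSMUSG00000027533, chromosome 3, 10012585 to 10016610), the fatty acid binding protein that carries fatty acids within the cytosol, was low in WT and higher in both other genotypes. WT macrophages had 287 CPM (67 UMIs, 222 to 364), RARα-KO macrophages 2289 CPM (550 UMIs, 2102 to 2488) and RARα-TG macrophages 1189 CPM (148 UMIs, 1006 to 1397). The log2 ratios to WT were 3.0 (2.63 to 3.39) for RARα-KO and 2.05 (1.63 to 2.49) for RARα-TG. At 2000 UMIs per cell, Fabp5 was held by 26.3%, 60.9% and 63.6% of the macrophages. The RARα-TG ratio shrank to 0.25 when all cells of the macrophage-like cluster were taken in place of the rule.

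Spp1 (ENSMUSG00000029304, chromosome 5, 104435111 to 104441053), the gene of the secreted matrix protein osteopontin, was higher in WT than in both other genotypes, and much of that lay in single cells. WT macrophages had 9350.1 CPM (2185 UMIs, 8962 to 9751), while RARα-KO macrophages had 2534 CPM (609 UMIs, 2337 to 2744) and RARα-TG macrophages 2797 CPM (348 UMIs, 2511 to 3107). The log2 ratios to WT were -1.88 (-2.02 to -1.75) for RARα-KO and -1.74 (-1.91 to -1.58) for RARα-TG. The 3 WT macrophages with the most Spp1 held 86.3% of its UMIs, and 1 of them held 1186. The median macrophage pointed the other way, at 1.07, 4.78 and 5.85 Spp1 UMIs per 10000, so the summed level and the typical cell did not give 1 order. Without the macrophage with the most Spp1 in each genotype the RARα-KO ratio was -1.19.

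Gpnmb (ENSMUSG00000029816, chromosome 6, 49036518 to 49058182), a glycoprotein of lysosomes and the cell surface in lipid-loaded phagocytes, had 2 UMIs in WT (8.56 CPM, 1.04 to 30.9), 34 in RARα-KO (141 CPM, 98.0 to 198) and 7 in RARα-TG macrophages (56.3 CPM, 22.6 to 116). A single RARα-KO macrophage held 27 of the 34 UMIs. The log2 ratio of RARα-KO to WT was 4.05 (2.08 to 7.15), and 2.86 without the macrophage with the most Gpnmb in each genotype. Over all settings of the analysis it ran from 0.47 to 4.79, and in the C1q-low cells of the same cluster it was -0.05. The RARα-TG ratio of 2.72 (0.32 to 6.02) rests on 7 UMIs against 2, and it was -0.18 with a looser gate of 2 C1q UMIs and 1 Lyz2 UMI.

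**Figure D1:**
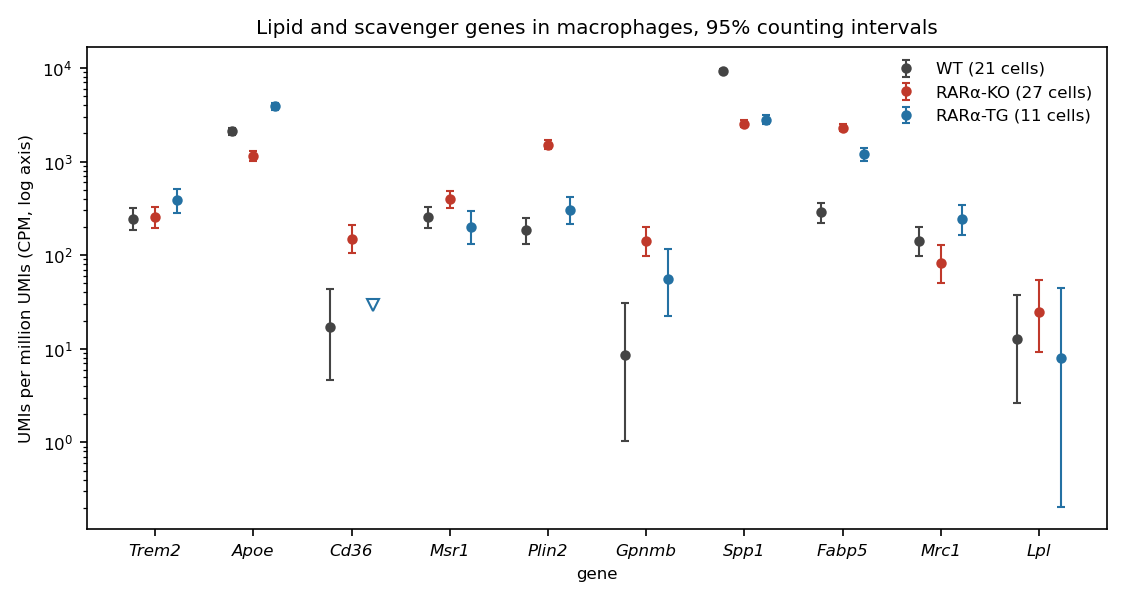
Level of each of the 10 genes in macrophages, in CPM on a log axis, for WT (21 cells), RARα-KO (27 cells) and RARα-TG (11 cells). Points are summed UMIs over summed gene UMIs, bars are exact Poisson 95% intervals, and the open triangle is the upper bound of Cd36 in RARα-TG, where no UMI was found. Plin2 and Fabp5 stand highest in RARα-KO, Spp1 in WT and Apoe in RARα-TG.

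**Figure D2:**
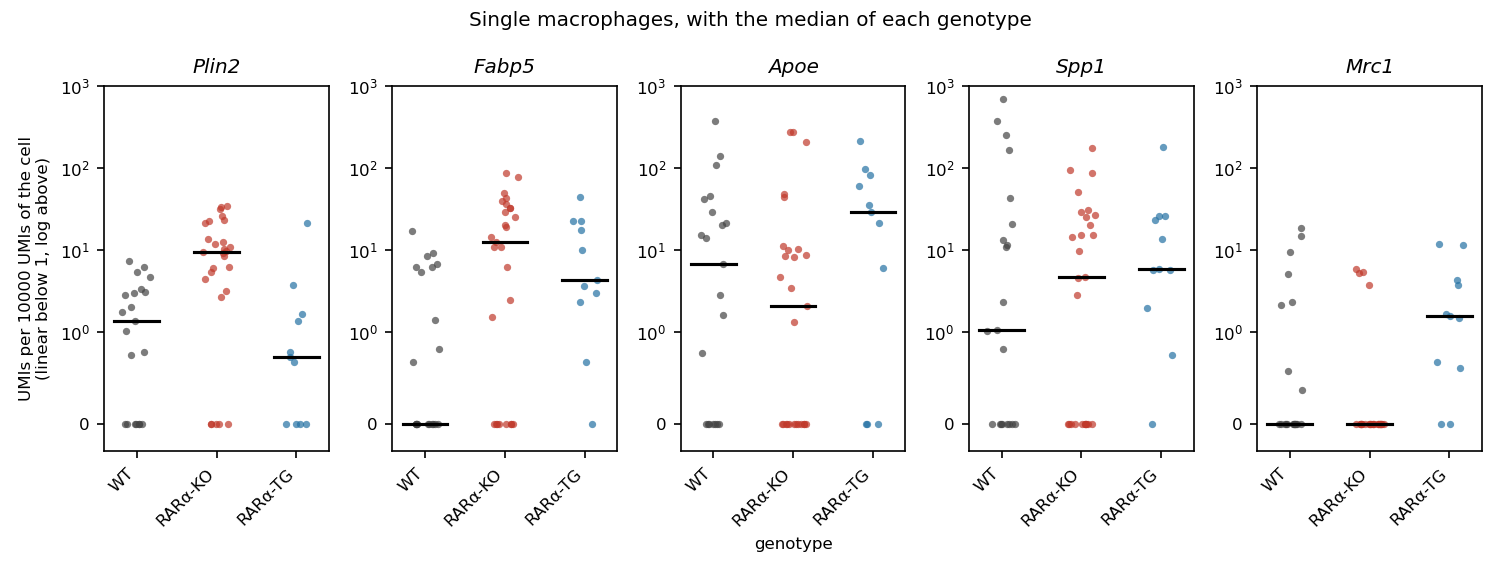
Plin2, Fabp5, Apoe, Spp1 and Mrc1 in each macrophage, in UMIs of the gene per 10000 UMIs of the cell, on an axis that is linear near 0 and logarithmic above, with the median of each genotype as a bar. The median for Plin2 is 9.56 in RARα-KO against 1.37 in WT and 0.728 in RARα-TG, and for Spp1 the high summed level of WT lies in few cells.

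Counted together, 4 of the 10 genes (Cd36, Plin2, Gpnmb and Fabp5) were 2-fold or more higher in RARα-KO than in WT macrophages and 1 (Spp1) was lower. Of all 6139 genes that reached 0.1 UMIs per cell in WT or RARα-KO, 12.3% were 2-fold or more higher and 18.9% lower, so differences of this size were common in so few cells. The median log2 ratio was 0.79 over the 10 genes and -0.14 over all genes. In RARα-TG, 8 of the 10 genes could be compared, and 2 (Fabp5 and Gpnmb) were 2-fold or more higher and 1 (Spp1) lower, against 12.3% and 16.5% of 5524 genes. Their median was 0.75, beside -0.09 over all genes. Both comparisons use the same WT cells, so the shared directions of Fabp5, Gpnmb and Spp1 are not 2 separate results.

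The cluster that held 58 of the 59 macrophages held 165 further myeloid cells that missed the gate (55, 87 and 23). Of these C1q-low myeloid cells, 136 had no C1q UMI at all. Trem2, Apoe and Mrc1 separated the macrophages from these neighbours in every genotype. Trem2 was at 70.9, 78.6 and 104 CPM in C1q-low cells of WT, RARα-KO and RARα-TG, which put macrophages higher by log2 1.78, 1.69 and 1.89. For Apoe (585, 224 and 623 CPM in C1q-low cells) macrophages were higher by 1.84, 2.37 and 2.64, and for Mrc1 (29.5, 16.8 and 77.8 CPM) by 2.26, 2.31 and 1.63. All 9 of these intervals lay above 0.

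The lipid droplet and fatty acid genes did not mark the C1q-rich cells in this way. In WT, Plin2 was at 777 CPM in C1q-low cells, 4.22-fold its level in macrophages, and Fabp5 was at 886 CPM and Gpnmb at 225 CPM, again above the macrophages of the same tumors. In RARα-KO both groups of cells were near each other, with 1537 CPM of Plin2 and 1827 CPM of Fabp5 in C1q-low cells and log2 ratios of macrophages to C1q-low cells of -0.02 and 0.32. In RARα-TG, Plin2 stood at 450 CPM and Fabp5 at 329 CPM in C1q-low cells, and macrophages were above them in Fabp5 (1.86) but not in Plin2 (-0.56, -1.20 to 0.07). Spp1 was at 5145, 2411 and 5457 CPM in C1q-low cells, so the order between both groups of cells changed with the genotype.

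Set against WT, the C1q-low cells of RARα-KO tumors shared the direction of the macrophages in Plin2, Fabp5, Cd36, Spp1 and Apoe, by smaller steps for all but Apoe. The log2 ratio was 0.98 (0.78 to 1.19) for Plin2, 1.04 (0.86 to 1.24) for Fabp5, 1.52 (0.70 to 2.43) for Cd36, -1.09 (-1.20 to -0.99) for Spp1 and -1.38 (-1.72 to -1.05) for Apoe. Gpnmb, which stood out in RARα-KO macrophages, was level here (-0.05, -0.48 to 0.39). Of 9 genes with a ratio, 2 were 2-fold or more higher and 2 lower, beside 8.83% and 7.93% of all genes in these cells. The RARα-KO cells held T cell markers for 10 of 10 genes (262 CPM over the list, against 11.8 in WT and 8.65 in RARα-TG), and the part of these T cell UMIs in the ratios was not tested.

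In C1q-low cells of RARα-TG tumors, Trem2 (0.55, -0.58 to 1.61) and Mrc1 (1.40, -0.08 to 2.85) lay on the same side of WT as in macrophages. Both intervals spanned 0. Apoe differed little from WT (0.09, -0.32 to 0.49). Msr1 (0.59, -0.06 to 1.22) lay on the other side of WT than in macrophages, with an interval that also spanned 0. Fabp5 was lower than in WT (-1.43, -1.96 to -0.94), Plin2 was lower (-0.79, -1.25 to -0.36), Spp1 differed little (0.09, -0.05 to 0.22), and Gpnmb had 0 UMIs against 76, a log2 ratio of at most -3.11. In macrophages of the same tumors Fabp5, Plin2 and Gpnmb were above WT and Spp1 below it, although Plin2 there was below WT without its top macrophage (-1.03). The difference between both groups of cells was not tested, since each genotype is 1 sample. Over all genes 12.1% were 2-fold or more higher and 18.1% lower in these cells, and of the 9 members 1 was higher and 2 lower.

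**Figure D3:**
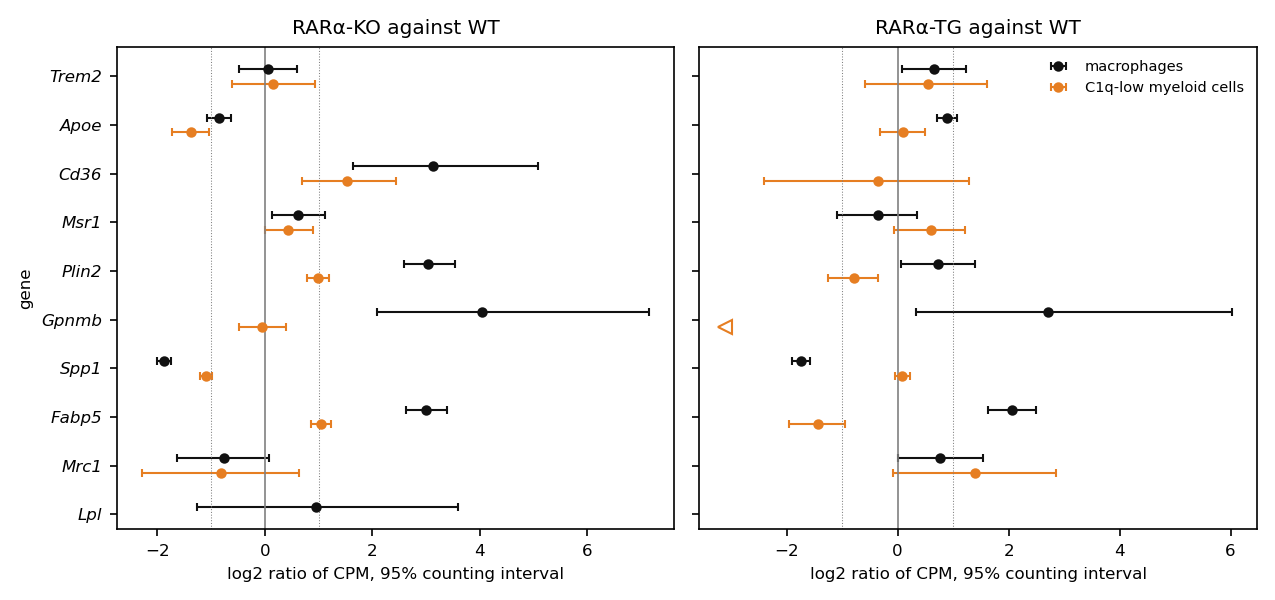
Log2 ratio to WT of each gene in RARα-KO (left) and RARα-TG (right), in macrophages (black) and C1q-low myeloid cells (orange), with exact 95% intervals for counting error. Dotted lines mark a 2-fold difference, and the open triangle is an upper bound for Gpnmb, which had 0 UMIs. In RARα-KO both groups of cells are above WT in Plin2 and Fabp5, and in RARα-TG they lie on opposite sides for Fabp5.

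Across the 7 cell classes, Trem2, Apoe, Mrc1 and Lpl were highest in macrophages in each genotype, although Lpl rests on 6 UMIs or fewer. The C1q-low cells came next for Trem2, Apoe and Mrc1 in each genotype. Msr1 was highest in macrophages of WT and RARα-KO and in C1q-low cells of RARα-TG, and macrophages and C1q-low cells did not differ in it beyond counting error in WT or RARα-TG. Plin2 was highest in C1q-low cells in WT and RARα-TG and in neutrophil-like cells in RARα-KO, and never in macrophages. Spp1 was highest in macrophages in WT, in neutrophil-like cells in RARα-KO and in C1q-low cells in RARα-TG. Gpnmb was highest in C1q-low cells in WT and RARα-KO and in macrophages in RARα-TG. Fabp5 was highest in dendritic-like cells in WT and RARα-TG and in macrophages in RARα-KO. Cd36, on few UMIs, was highest in dendritic-like cells in WT, in macrophages in RARα-KO and in C1q-low cells in RARα-TG.

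Dendritic-like cells (19, 32 and 9 cells) had UMIs of 13, 13 and 9 of the 14 dendritic markers. They carried 1438, 1991 and 3645 CPM of Fabp5, and the log2 ratios to WT of 0.47 (0.26 to 0.68) and 1.34 (1.05 to 1.63) had the same sign as in macrophages. Trem2, Msr1, Gpnmb, Mrc1 and Lpl had no UMI in these cells in any genotype, and Plin2 had 43.9, 90.2 and 0 CPM. Fabp5 was thus shared by dendritic-like cells and macrophages while Trem2, Msr1 and Mrc1 were not. Cd36 had 10, 4 and 0 UMIs there (48.7, 15.7 and 0 CPM), and in WT it did not differ from macrophages beyond counting error. Of 4 members tested in RARα-KO dendritic-like cells, 1 was 2-fold or more higher than WT and 2 lower, beside 12.5% and 13.5% of all genes. Of 2 members tested in RARα-TG, 2 were higher and 0 lower, beside 19.7% and 12.6% of all genes. Cells led by Siglech, a gene of plasmacytoid dendritic cells, had no UMI of Trem2, Msr1, Spp1, Mrc1 or Lpl. They held Plin2 at 105, 205 and 22.8 CPM and Apoe at 22.1, 15.8 and 91.4 CPM, on 19 UMIs or fewer each. For RARα-TG the log2 ratio was 2.05 (0.15 to 4.23) for Apoe and -2.20 (-5.35 to -0.15) for Plin2. Of 3 members with a ratio there, 0 were 2-fold or more higher in RARα-KO and 1 in RARα-TG, beside 8.96% and 9.79% of all genes, and 1 was lower in each, beside 14.6% and 14.1%.

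Neutrophil-like cells were few and shallow (10, 37 and 10 cells with median depths of 1691.5, 2059 and 1551.5 UMIs). Spp1 was at 6707, 7014 and 1446 CPM, which gave log2 ratios to WT of 0.06 for RARα-KO and -2.21 (-2.89 to -1.59) for RARα-TG. Plin2 was at 605, 1731 and 405 CPM, higher in RARα-KO by 1.52 (0.66 to 2.50). So Plin2 was above WT in RARα-KO neutrophil-like cells as it was in macrophages, while Spp1 was not below it. Over all genes in these cells 15.5% were 2-fold or more higher and 14.2% lower in RARα-KO.

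The class of MC38 or stromal cells held 262, 118 and 16 cells. It had 0 Epcam UMIs, and the matrix genes Col3a1 and Sparc were high in all 3 genotypes, so tumor cells and fibroblasts could not be told apart. Spp1 (167, 203 and 210 CPM), Plin2 (140, 173 and 65.8 CPM) and Gpnmb (85.1, 128 and 42.7 CPM) were all measured here. The ratios were small in RARα-KO, 0.59 (0.42 to 0.75) for Gpnmb, 0.30 (0.17 to 0.44) for Plin2 and 0.28 (0.16 to 0.41) for Spp1. None of 4 members tested was 2-fold higher or lower in RARα-KO, and over all genes 2.06% were higher and 1.06% lower. For RARα-TG the Plin2 ratio was -1.09 (-1.81 to -0.46). Of the 4 members, 0 were 2-fold or more higher and 1 was lower, beside 7.88% and 10.5% of all genes. Msr1 and Lpl had no UMI in the class.

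**Figure D4:**
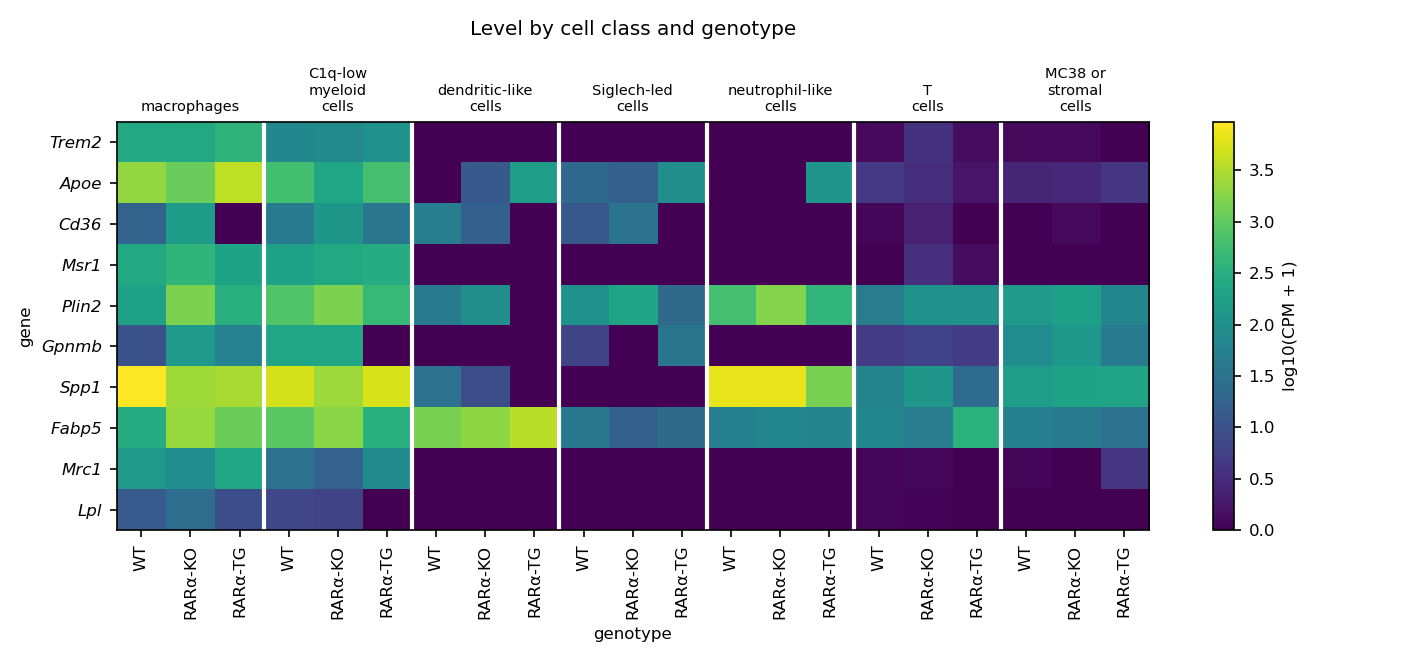
Level of the 10 genes as log10(CPM + 1) in 7 cell classes, with a column for each genotype. Trem2, Apoe, Msr1 and Mrc1 are higher in macrophages and C1q-low cells than in the other classes of the same genotype, Apoe reaching 161 CPM in RARα-TG dendritic-like cells, while Plin2 and Fabp5 reach into dendritic-like cells, neutrophil-like cells or T cells.

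The T cells carry the genetic change, and 3 of the 10 genes reached 0.1 UMIs per cell in them. RNA of broken cells was also in the droplets: barcodes without a cell held 222 CPM of Fabp5, 189 CPM of Spp1 and 62.9 CPM of Plin2, against 14.8 CPM of Trem2 and 29.6 CPM of Apoe. The part of this free RNA in the T cell levels was not tested. Plin2 was at 47.4, 105 and 105 CPM in T cells, with a log2 ratio to WT of 1.15 for both genotypes (0.97 to 1.33 for RARα-KO, 0.92 to 1.37 for RARα-TG). Fabp5 was at 66.2, 47.4 and 345 CPM, lower in RARα-KO (-0.48, -0.67 to -0.29) and higher in RARα-TG (2.38, 2.23 to 2.54). Spp1 was at 58.6, 125 and 23.7 CPM, higher in RARα-KO (1.10, 0.94 to 1.26) and lower in RARα-TG (-1.30, -1.69 to -0.94). Over all genes in T cells only 1.02% were 2-fold or more higher and 1.09% lower in RARα-KO, and 3.8% and 2.72% in RARα-TG.

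At 2000 UMIs per cell, Plin2 was found in 7.62%, 17.1% and 17.8% of the T cells and Fabp5 in 8.83%, 5.85% and 27.5%, shares that follow the levels. Spp1 was in 3.45%, 3.21% and 1.80% of them, so the higher Spp1 level of RARα-KO did not go with a higher share of cells. Apoe, at 27, 21 and 2 UMIs in all T cells, was in at most 0.357% of T cells at that depth, far from the macrophages. A few RARα-KO cells counted as T cells held 25 Trem2 and 23 Msr1 UMIs, but cells with both a clonotype and a place in a T cell cluster held 0 of either in RARα-KO. In these stricter T cells Plin2 (43.1, 92.2 and 104 CPM), Fabp5 (68.1, 39.7 and 349 CPM) and Spp1 (58.7, 103 and 15.6 CPM) kept their side of WT in both genotypes.

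Within T cell clusters of 20 or more cells in both genotypes, Plin2 was above WT in RARα-KO in each of 7 clusters with a ratio, by 0.46 to 0.99, and the interval lay above 0 in 4 of them. Spp1 was above WT beyond counting error in 3 of 6 clusters. In the cluster led by Tnfsf8 and Ramp3 its counts were 4 for WT and 105 for RARα-KO (3.83, 2.43 to 5.74), but those 105 lay in 6 cells. In the cluster led by Gzmf, Gzmd and Gzme, genes of cytotoxic granules, Spp1 was at 125 CPM in 347 WT cells and 825 CPM in 42 RARα-KO cells (2.72, 2.50 to 2.94), in 15.3% and 45.2% of the cells. In the cluster led by Gzma it had 0, 4 and 0 UMIs. Fabp5 in RARα-KO was below WT beyond counting error in 1 of 7 clusters, the one led by Foxp3 (-0.67), and not above WT in any. Its ratios over the 7 clusters ran from -1.01 to 0.53. For RARα-TG, Plin2 was above WT beyond counting error in 1 of 5 clusters, with ratios from -0.80 to 1.74. Spp1 in RARα-TG had a ratio in 3 clusters, from -4.17 to 0.23, and was below WT beyond counting error in 1, on 1 UMI against 72. Of the 453 Spp1 UMIs of WT T cells, 331 lay in the cluster led by Gzmf, where RARα-TG had too few cells for a ratio. The part of cluster make-up in the lower Spp1 sum of RARα-TG was not tested.

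In RARα-TG, Fabp5 was above WT beyond counting error in 2 of 5 clusters. In the cluster led by Foxp3, the factor that defines regulatory T cells, it was at 231, 145 and 358 CPM, and in the cluster of cycling cells led by histone genes it was at 78.4, 57.0 and 453 CPM. The highest level was in a cluster led by Rln3 and Klrg1 that held 238 RARα-TG cells and fewer than 20 of each other genotype. There Fabp5 was at 645 CPM, in 60.5% of the cells, with 203 CPM of Plin2 and 37.0 CPM of Spp1, and 203 of the 305 Plin2 UMIs of RARα-TG T cells lay in this cluster. This cluster thus held 645 of the 1003 Fabp5 UMIs of RARα-TG T cells, and with so few WT cells no ratio could be given for it.

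**Figure D5:**
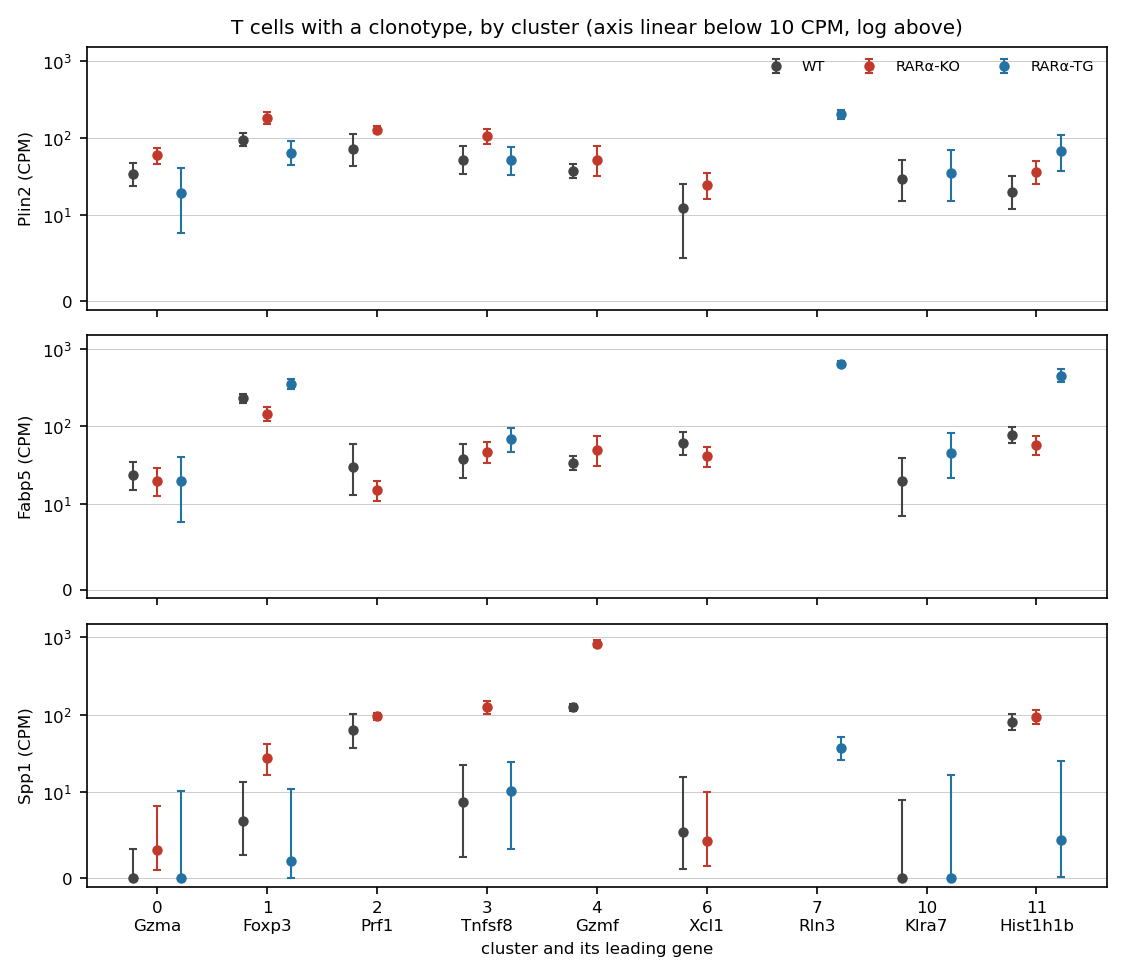
Plin2, Fabp5 and Spp1 in CPM in the T cell clusters, by genotype, with exact Poisson 95% intervals. Plin2 is above WT in RARα-KO in all 7 clusters with a ratio, Spp1 reaches 825 CPM in the RARα-KO cells of the cluster led by Gzmf, and Fabp5 reaches 645 CPM in the cluster led by Rln3, which is almost only RARα-TG.

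The other genes of lipid handling were read from 6 lists, with the same lower limit on UMIs per cell as above. The counts stand beside the shares over all genes in macrophages given above (12.3% higher and 18.9% lower for RARα-KO, 12.3% and 16.5% for RARα-TG), and no list was tested. In RARα-KO macrophages, 6 of 15 lysosome genes were 2-fold or more above WT and 1 below, with a list median of 0.76 against -0.14 over all genes. Ctsl and Ctsd, proteases of the lysosome, were at 770 and 578 CPM in WT and 4228 and 1606 CPM in RARα-KO, log2 ratios of 2.46 (2.23 to 2.69) and 1.48 (1.19 to 1.77). Lipa, the acid lipase that frees cholesterol from lipoproteins, was at 38.5 and 104 CPM (1.43, 0.29 to 2.72). Of 11 lipid droplet and fatty acid genes 5 were higher and 2 lower (median 0.54), among them Acsl1, which activates fatty acids, with 3 UMIs in WT and 22 in RARα-KO, and Soat1, which esterifies cholesterol (1.34, 0.45 to 2.30).

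Of 9 uptake genes tested 0 were higher and 3 lower in RARα-KO macrophages (median -0.04), with Axl, a receptor for dying cells, at 16 UMIs in WT and 6 in RARα-KO. Of 9 Trem2 signalling partners 1 was higher and 4 lower (median -0.36). The higher one was Adam17, a protease of the cell surface, with 5 UMIs in WT and 15 in RARα-KO (1.54, 0.01 to 3.36). Of 8 genes often seen in lipid-laden macrophages 1 was higher and 1 lower (median 0.05). The lower one was Itgax, an integrin found on dendritic cells and some macrophages, at 94.1 and 29.1 CPM (-1.69, -3.16 to -0.42). Of 8 genes of cholesterol efflux and the LXR response 3 were higher and 0 lower (median 0.23), with Abcg1, a cholesterol exporter, at 25.7 CPM in WT and 83.2 CPM in RARα-KO (1.70, 0.33 to 3.30). In C1q-low cells of RARα-KO, Acsl1 was higher as well (1.93, 0.66 to 3.46), while Pltp and Apoc2, which serve lipoproteins as Apoe does, were lower (-1.88 and -1.47), and Stab1, a scavenger receptor, was higher (1.44, 0.43 to 2.60). None of 14 lysosome genes was 2-fold apart in those cells, where 8.83% of all genes were higher and 7.93% lower.

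In RARα-TG macrophages, of 14 lysosome genes 0 were 2-fold or more higher or lower (median 0.16), of 8 lipid droplet genes 0 were higher and 2 lower (median 0.04), and of 7 genes of cholesterol efflux 1 was higher and 4 lower (median -1.41). Of 10 uptake genes 1 was higher and 1 lower (median -0.22), with Stab1 at 25 UMIs in WT and 5 in RARα-TG (-1.41, -3.15 to -0.00). The Trem2 partners (1 higher and 1 lower of 9, median -0.40) and the genes seen in lipid-laden macrophages (0 of 7 in either direction, median 0.14) were mixed. In RARα-TG C1q-low cells 4 of 10 lipid droplet genes were lower and 0 higher (median -0.54), beside 18.1% and 12.1% of all genes, among them Hilpda, an inhibitor of droplet lipolysis, at 1132 CPM in WT and 562 CPM in RARα-TG (-1.01, -1.41 to -0.63). Olr1, the receptor LOX-1 for oxidized LDL, was higher there (1.69, 0.73 to 2.67), and Cxcl16, which also binds oxidized lipoproteins, was lower (-1.27, -1.97 to -0.63).

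Single macrophages mixed these genes in many ways. A macrophage held UMIs of a median of 5 of the 10 genes in WT and RARα-KO and 6 in RARα-TG, with a range of 1 to 8 in the former 2 and 4 to 8 in the latter. Plin2 and Fabp5 occurred together in 9 of 21, 16 of 27 and 7 of 11 macrophages, and Spp1 and Mrc1 in 6, 1 and 9 of them. Depth differs between the cells and moves such counts.

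Over the 59 macrophages, which share 1 library and differ in depth and genotype, the strongest rank correlation among the 10 genes was that of Apoe with Mrc1 (Spearman's rho 0.52 over all, and 0.50, 0.45 and 0.32 within the genotypes). Plin2 went with Fabp5 (0.40 over all and 0.40, 0.40 and 0.64 within the genotypes) and, over all cells, against Mrc1 (-0.35), with -0.07, -0.43 and 0.01 within the genotypes. The genes most like each member over these cells, among those found in 20% or more of them, were Ccl8 (0.62), Itm2b and Pf4 for Apoe, and Ctsd (0.61), Ctsb and Cdk9 for Fabp5. For Trem2 they were Arg1 (0.55), Naxe and Ptms, and for Msr1 Glrx (0.78), Clec4d and Arg1. Clec4d also led for Plin2 (0.64), before Rrbp1 and Cndp2, and Spp1 was most like Cd9 (0.59), Anxa3 and Plp2. Mrc1 was most like Ntpcr (0.59), Cd81 and Rpl10a, and Cd36, Gpnmb and Lpl were in too few macrophages to be ranked.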

How the data were processed

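The study sequenced 1 pooled 10x Genomics 5′ library of MC38 tumor cells of 3 genotypes (WT, RARα-KO, RARα-TG). The authors aligned the reads to mm10 (GRCm38) with Cell Ranger (6.1.0 per the submitters' processing notes, while the matrix header names version 4) and deposited raw UMI counts per gene and barcode, with hashtag counts and a table of T cell receptor contigs. The labels also name spleen and naive CD8 T cells that were activated; as their protocol describes tumors, the protocol was followed.

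All 730308 barcodes were deposited. Cell calling therefore repeated the steps of Cell Ranger (Python 3.11.15 with scipy 1.17.1 and numpy 2.4.6), which gave 5585 cells with a median of 4823 UMIs, fewer cells than the study states. HTODemux (Seurat 5.3.0, 0.99 quantile) gave 1927 WT, 2103 RARα-KO and 895 RARα-TG cells, with 17766060, 16191256 and 4011140 gene UMIs. The 426 hashtag doublets and 234 cells without a hashtag were left out, among them 14 and 4 cells that met the macrophage gate. Doublets within a genotype were not removed, and no mitochondrial limit was set. Clusters (leidenalg 0.10.2) were named from marker lists. T cells were cells with a clonotype, and T cell clusters were those where over 50% of the cells had one.

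UMIs were summed per class and genotype. Ratios used 3 UMIs in place of a count of 0, and pairs with both counts at or under 3 got none. Genes needed 0.1 UMIs per cell in at least 1 genotype to enter counts of 2-fold differences. From the 6 pathway lists, genes past 2-fold with 20 or more UMIs over both genotypes and an interval that excluded 0 could be named, up to 3 per list. PCR duplicates are removed by the UMIs, and the intervals cover counting error only. The ratio step was tested on simulated Poisson counts of macrophages. There 97.4% of the intervals for RARα-KO and 97.2% for RARα-TG held the simulated ratio. Of the unchanged genes, 19.5% and 22.0% were past 2-fold from counting error. The simulation had no spread between cells, so it could not check genes whose UMIs lay in few cells. Names and coordinates of all 10 genes come from RefSeq (GRCm38.p6). The members and lists were chosen with earlier results of these data known.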

Additional observations from a re-analysis of the deposited data

Results flagged for a closer look

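The summed levels of Apoe, Spp1 and Fabp5 took opposite sides in macrophages and T cells under the same contrast. Apoe in RARα-TG against WT had a log2 ratio of 0.89 in macrophages and -2.34 in T cells, where it rests on 2 UMIs against 27, and the 27 lay in 6 WT cells with 15 in a single one. Spp1 in RARα-KO against WT had -1.88 in macrophages and 1.10 in T cells, and Fabp5 in RARα-KO against WT had 3.0 in macrophages and -0.48 in T cells. All 6 intervals excluded 0 for counting error. The median macrophage took the other side for Spp1, at 4.78 UMIs per 10000 in RARα-KO and 1.07 in WT. Within T cell clusters, Fabp5 in RARα-KO was below WT beyond counting error in 1 of 7. With 1 sample per genotype the difference between both cell types was not tested.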

How the results depend on the processing

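No paired analysis was possible because each genotype is 1 sample and no test was made. Each macrophage value was computed again under up to 15 settings, of which leaving out the macrophage with the most UMIs of a gene, and T cells with both a clonotype and a T cell cluster, were chosen after seeing the data. Of the single ratios of RARα-KO to WT, 116 stayed within counting error of the main value, 28 moved and 2 changed sign: Apoe was 0.16 with cells thinned to 2000 UMIs and Cd36 -0.17 with equal weight per cell. For RARα-TG, 99 stayed, 15 moved and 4 changed sign: with the whole macrophage-like cluster Plin2 was -0.54 and Gpnmb -2.26, Gpnmb was -0.18 with the looser gate, and Plin2 was -1.03 without the top macrophage. Over the settings, RARα-KO ratios ran from 1.49 to 3.23 for Plin2, 1.59 to 3.88 for Fabp5, -2.11 to -0.56 for Spp1 and 0.47 to 4.79 for Gpnmb, and RARα-TG ratios from 0.25 to 3.15 for Fabp5, -2.09 to -0.22 for Spp1 and 0.33 to 1.75 for Apoe. Of members 2-fold or more lower in RARα-KO there were 1 in the main count, 2 with equal weight per cell, the looser gate, without the deepest 5% of macrophages, with a leading hashtag of 80% or more or without the top macrophage, and 3 with the cluster. In RARα-TG, 2 members were higher in the main count, 4 with the stricter gate and 1 with the cluster, and 1 was lower in the main count, 2 with the cluster or without the deepest 5%, 0 with the leading hashtag and 3 without the top macrophage. The share of all genes past 2-fold, 31.2% in RARα-KO and 28.8% in RARα-TG, stayed within 1.5 times under all 6 alternatives. The cause of these shifts was not tested. Depth limits Cd36, Gpnmb, Mrc1 and Lpl, each with 36 UMIs or fewer in each genotype's macrophages.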
